A study of Mus musculus with 4 samples.

Results

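Gene expression with an shRNA against AKAP95 was measured here in mouse embryonic stem (ES) cells that had been differentiated with retinoic acid (RA). One array of AKAP95 shRNA cells was set against 1 array of scramble shRNA cells, both after RA, and a probe entered where its detection p was under 0.01 on at least 1 of these arrays. That kept 12627 of 25697 probes, which stood for 9397 of the 17877 genes on the array. Both populations were E14 cells, a mouse ES cell line, stably infected with a virus that expressed either a scrambled shRNA or an shRNA against AKAP95, the protein of Akap8. They were grown on gelatin with LIF, a cytokine that holds ES cells undifferentiated, then for 4 days without LIF and for 4 days in 1 µM all-trans RA as a monolayer. The other 2 arrays of the series held the same scramble and knockdown cells kept in LIF without RA. There was 1 array per group, so no value has a replicate error and no test between groups could be made. Differences are given as sizes, and a gene is called higher or lower at a difference of at least 2-fold. The labels do not say whether the infected cells were pools or clones, nor how many shRNA sequences were used.

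AKAP95 is a zinc finger protein of the nucleus that anchors protein kinase A, binds chromatin and RNA, and has been linked to the MLL2 complex, which methylates lysine 4 of histone H3. RA binds nuclear receptors, switches on Hox genes from the anterior end of the clusters onward and drives ES cells in monolayer toward neural and endodermal fates, while the pluripotency network shuts down. Genes of the germ line and of the earliest embryo are largely held silent in differentiated cells by DNA methylation and by repressor complexes, among them a polycomb complex that recognises E-box and E2F sequences in germ line promoters.

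Detected probes numbered 11817 with scramble and 12156 with knockdown after RA, with median signals of 82.8 and 82.0. The knockdown minus scramble difference had a median of 0.003 on the log2 scale over the 9397 genes. The 12 housekeeping genes compared lay between -0.29 and 0.34. Of 6 markers that define undifferentiated ES cells, all were detected on both RA-treated arrays, at summed signals of 1799.7 with scramble and 5944.6 with knockdown, against 42881 and 41375 before RA. Neural progenitor markers, which include Zic1 and Dbx1 named below, summed to 2448 and 896.4 after RA. Pax6, Sox1 and Fabp7 among them were detected on neither array. The RA-treated arrays thus carried some markers of neural progenitors and lacked others. In a bulk culture, fewer cells of a kind and less RNA per cell cannot be told apart.

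Akap8, on chromosome 17, gave a signal of 297 with scramble and 199.7 with knockdown after RA, which is 1.70-fold lower (log2 -0.77). Before RA the signals were 272 and 139 (log2 -1.18). The knockdown array was the lower one in both states, and after RA the difference stayed under 2-fold. The paralog Akap8l had signals of 736 and 750.3 after RA (log2 0.03). None of the 12 compared genes of the MLL and SET1 histone methyltransferase complexes reached 2-fold (median 0.15, from -0.11 to 0.48). Kmt2b, which encodes the methyltransferase MLL2, had signals of 697 and 954 (log2 0.48), and the shared subunit gene Dpy30 had 2849.9 and 3046 (log2 0.14).

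After RA, 298 genes were higher in knockdown cells by at least 2-fold (3.17% of those compared) and 305 were lower (3.25%), as the plot of both RA-treated arrays shows. A fold is computed after background correction and normalization, so it differs from the ratio of the signals quoted, which still hold the background; for dim genes it is mostly the larger of the pair. Where a gene was detected on 1 array alone the fold is a lower bound, written "at least". That applied to 45 of the higher and 49 of the lower genes. In undifferentiated cells the same shRNA gave 6 genes higher (0.0687%) and 11 lower (0.126%) of 8734 compared. Past 4-fold there were 47 genes higher (0.500%) and 48 lower (0.511%) after RA, and 0 in either direction before it (0.00%). Just inside the threshold stood Klk8 (352 with scramble and 650.2 with knockdown) and Gcnt2 (381 and 701), both higher, and Armcx3 (389 and 225), which was lower. Just outside it stood Cyb561 (445 and 845) on the higher side and Vldlr (1132 and 609.6) on the lower side. Without background correction the counts were 135 higher and 146 lower. The lists below count only members detected on at least 1 RA-treated array. The shares over all genes, 3.17% higher and 3.25% lower, stand beside every list count.

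**Figure D1:**
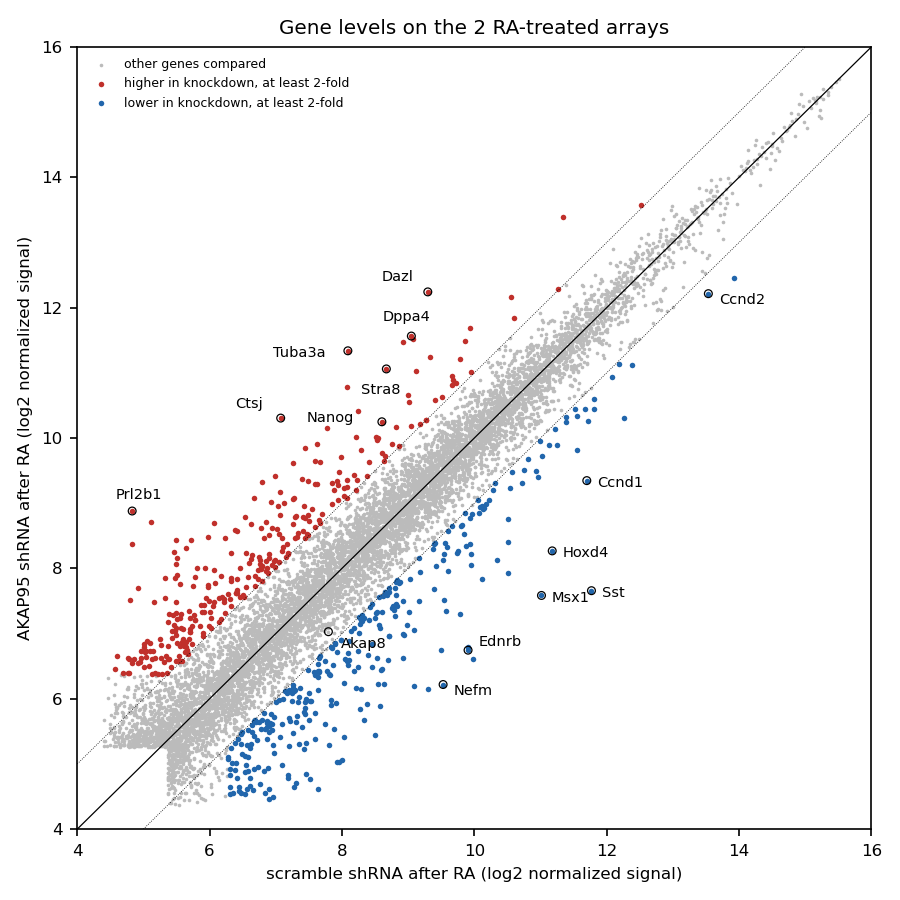
Each point is 1 of the 9397 genes compared, with the log2 normalized signal of the scramble RA array on the x axis and of the AKAP95 shRNA RA array on the y axis. Red points are the 298 genes higher and blue points the 305 lower in the knockdown by at least 2-fold (dotted lines); circles mark genes named in the text, among them Akap8 between the dotted lines. Genes not detected on 1 array are drawn at their measured value, so some lie farther from the diagonal than the bound used for them.

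The higher and the lower genes differed in how the undifferentiated cells expressed them. Detection on at least 1 undifferentiated array held for 8256 of 9397 genes compared, 273 of 298 higher and 183 of 305 lower ones. The higher genes were thus near the share over all genes, and the lower ones were below it. Of the 298 higher genes, 270 were detected in undifferentiated scramble cells. The 298 had a median log2 level of 8.32 there, against 6.49 with scramble and 8.03 with knockdown after RA. The scramble RA level was below both undifferentiated arrays for 243 of them. In knockdown RA cells, 141 of the 298 were still below both undifferentiated arrays and 137 were above both. Of the 305 lower genes, 288 had a scramble RA level above both undifferentiated arrays, and 193 were above both in the knockdown as well. Their median log2 levels were 5.97 and 5.73 before RA in scramble and knockdown cells, 8.10 with scramble after RA and 6.49 with knockdown after RA. These counts use the same RA-treated arrays that chose the genes, and are a description. Across 8256 genes compared in both states, which share no array, the knockdown differences had a Pearson's r of 0.168 and a Spearman's rho of 0.157. Of the genes past 2-fold after RA, 2 higher and 2 lower ones were past 2-fold the same way before RA. The difference between the states was not tested. The plot of the knockdown difference in both states shows H1f2 and Acta1 on the upper right, and Sp5 as the gene past 2-fold in opposite directions.

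**Figure D2:**
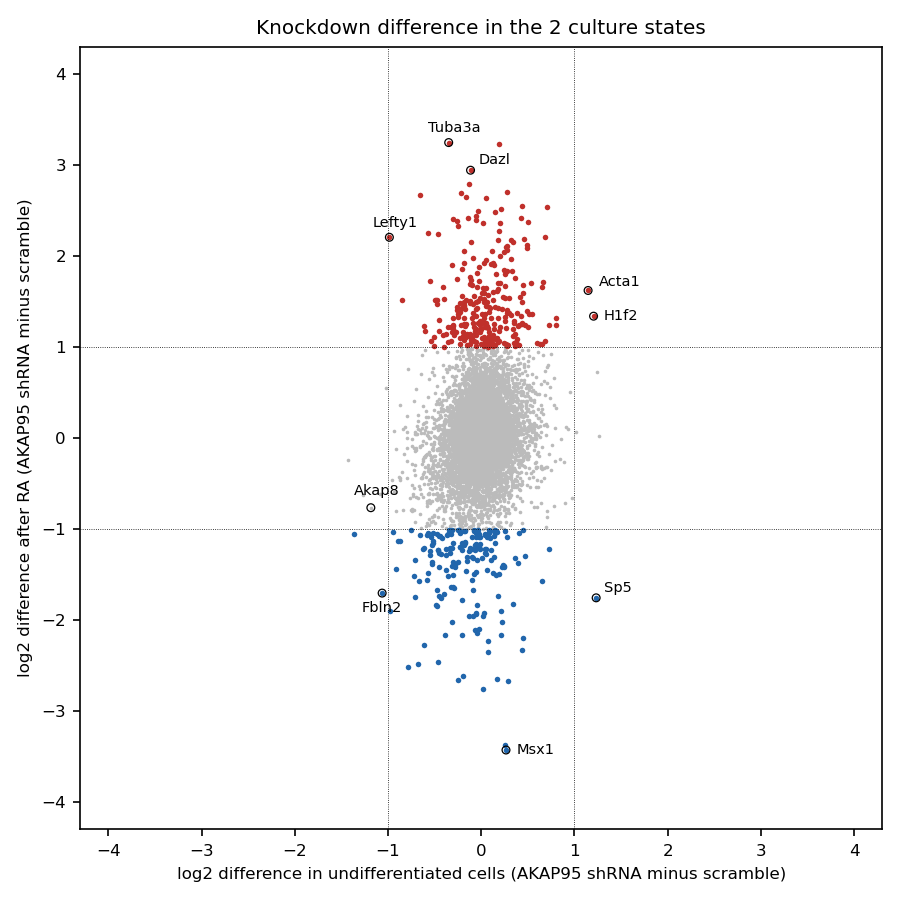
Each point is 1 of the 8256 genes compared in both states, with the log2 difference AKAP95 shRNA minus scramble in undifferentiated cells on the x axis and after RA on the y axis, each from 1 array against 1 array. The red (higher) and blue (lower) genes past 2-fold after RA spread along the y axis and stay mostly between the dotted 2-fold lines of the x axis.

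Genes of the germ line stood highest among the larger gene lists. Of 33 germ line and meiosis genes compared, 26 were higher by at least 2-fold and 0 lower, where 3.17% of all genes were higher, and their median log2 difference was 1.69 (from -0.23 to 3.25). Of these 26, 4 were detected on the knockdown RA array alone, so they entered through the array where they were high. With detection required on both RA-treated arrays, 22 were higher. Without background correction 18 were higher (median 1.13), and with an offset of 50 there were 22 (median 1.24). Of the list, 58 genes were on the array and 25 were detected on neither RA-treated array. In undifferentiated cells 33 of its members were compared and 0 passed 2-fold, with a median of -0.06. Dazl, an RNA-binding protein of germ cells, gave a signal of 738 with scramble and 4699 with knockdown (7.70-fold), against 955 and 847 before RA, so that the knockdown RA array was above the other 3. Tuba3a, a tubulin of the testis, gave 353 and 2585 after RA (9.51-fold), and 1929 and 1420.0 before it. All 4 of its probes lay between 2.85 and 3.25, although the near-identical Tuba3b, at 5.30-fold, may share them.

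Stra8, which RA induces at the entry into meiosis, was near background before RA (93.5 and 72.6) and stood at 493 with scramble and 2188 with knockdown after it (5.24-fold). Dpep3, a dipeptidase of the testis, was detected on the knockdown RA array alone, at 420.3 against 75.2 (at least 8.03-fold). The following members were picked out after their values were seen, by what they do. Rec8 and Smc1b, subunits of the meiotic cohesin ring, were 3.11-fold higher (1056 and 2871) and 5.36-fold higher (189 and 802). Asz1, Piwil2 and Mov10l1, all of the piRNA pathway that silences transposons in germ cells, were 5.66-fold, 2.91-fold and 2.86-fold higher. Some germ line genes did not reach 2-fold or were not detected. Ddx4, the germ cell helicase, had 73.9 and 102 (log2 0.27, a bound), and the synaptonemal complex gene Sycp3 was detected on none of the 4 arrays. The 5 markers that define germ cells summed to 1413 with scramble and 7101 with knockdown, and Sycp3 and Prdm1 among them were undetected. Before RA the sums were 1244.3 and 1121.0. Dazl and Stra8 are among these markers, so the sum repeats their values and is not separate evidence of germ cells. The part of germ cells in the list's difference was not tested. Of the 26 higher members, 15 were above both undifferentiated arrays in the knockdown, and 25 were already detected in undifferentiated scramble cells. Most genes were: of all 9397 compared, 8256 were detected on at least 1 undifferentiated array.

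Promoters of higher germ line genes are shown for the E-box TCACGTG and the E2F sequence TTCCCGC, both searched on both strands. Each was more frequent among them than among the genes compared. Shares for germ line genes that were not higher were not computed. Such genes held the motifs too: Ddx4, under 2-fold, held the E2F sequence, and Sycp3, undetected, held both. The shares therefore do not set the higher members apart from the rest of the list. Sequences are RefSeq promoters of build GRCm38.p6, from 250 bases before to 50 after the annotated start. Of the 26 higher germ line genes, 22 matched by symbol, with 24 promoters. The E-box was in 5 of these promoters (20.8%), which belong to 4 genes because Stk31 has a pair of overlapping promoters that share it, and the E2F sequence was in 5 promoters (20.8%) of 5 genes. In 9677 promoters of the genes compared the shares were 5.85% and 7.99%, and in all 32851 promoters they were 3.77% and 4.6%. Promoters of all higher genes held them at 6.67% and 6.33%, and those of lower genes at 1.68% and 3.69%. The octamer ATTTGCAT was in 1.67% of promoters of higher and 3.36% of promoters of lower genes, against 1.33% of those compared. A match is a description of letters in this window, not a binding site. Capitals below mark the E-box (Taf7l, Stk31) or the E2F sequence (Smc1b, Tuba3a), on either strand. Taf7l is a germ cell subunit of TFIID (chrX:134476441-134476740, minus strand) and Stk31 a testis kinase (chr6:49395289-49395588, plus strand). Smc1b lies at chr15:85131908-85132207 and Tuba3a at chr6:125286032-125286331, both on the minus strand.
Taf7l: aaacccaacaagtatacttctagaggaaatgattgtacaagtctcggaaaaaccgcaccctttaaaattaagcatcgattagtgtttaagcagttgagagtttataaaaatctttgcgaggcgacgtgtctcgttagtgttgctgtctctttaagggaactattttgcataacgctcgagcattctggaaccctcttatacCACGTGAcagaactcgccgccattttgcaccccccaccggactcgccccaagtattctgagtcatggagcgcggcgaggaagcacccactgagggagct
Stk31: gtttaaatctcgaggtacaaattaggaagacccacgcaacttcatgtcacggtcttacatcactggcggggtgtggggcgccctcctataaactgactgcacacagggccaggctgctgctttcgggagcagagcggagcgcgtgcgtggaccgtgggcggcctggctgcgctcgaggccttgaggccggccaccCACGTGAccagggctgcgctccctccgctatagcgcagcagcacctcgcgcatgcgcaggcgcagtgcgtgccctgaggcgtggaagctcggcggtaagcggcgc
Smc1b: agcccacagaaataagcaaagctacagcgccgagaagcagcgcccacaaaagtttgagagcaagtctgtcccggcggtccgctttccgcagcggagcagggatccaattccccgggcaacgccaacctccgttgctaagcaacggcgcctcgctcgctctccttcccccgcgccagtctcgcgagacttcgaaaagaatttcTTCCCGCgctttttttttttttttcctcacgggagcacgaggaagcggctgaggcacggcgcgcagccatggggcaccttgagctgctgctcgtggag
Tuba3a: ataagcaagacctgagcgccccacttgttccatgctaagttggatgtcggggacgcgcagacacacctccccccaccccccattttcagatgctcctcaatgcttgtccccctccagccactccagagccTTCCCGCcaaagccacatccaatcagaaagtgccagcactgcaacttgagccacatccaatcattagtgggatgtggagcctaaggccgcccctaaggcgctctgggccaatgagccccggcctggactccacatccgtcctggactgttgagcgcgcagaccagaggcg
The matches begin at -49, -55, -48 and -120 from the annotated start in that order. Taf7l signals were 197 and 685 after RA (4.31-fold), and 340.1 and 392 before it, so the E-box gene was highest with knockdown after RA. Stk31 was at 98.4 and 231 after RA (3.33-fold), and at 219 and 201 before it. Over all 300 promoters of higher genes the median ratio of observed to expected CpG was 0.44, against 0.61 for 298 promoters of lower genes and 0.75 for the genes compared, and GC content was 57.3%, 59.5% and 60.7% in that order.

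Reproductive genes of the X chromosome were part of the same set. The Rhox genes are a cluster of homeobox genes of testis, ovary and placenta. Of the 6 compared members of the list, 4 were higher and 0 lower (median 2.54, or 1.48 at a detection threshold of 0.05), and Rhox4d, which the list does not hold, was higher as well (95.9 and 353, 5.94-fold). Rhox9 gave 575 with scramble and 2823 with knockdown after RA (5.86-fold), and 495 and 633 before it. Rhox5 gave 351 and 1854 (6.49-fold), and 1929.9 and 1565 before RA, so that the knockdown RA array came within the range of the undifferentiated ones while the scramble RA array was below them. Rhox10 had 94.8 and 392 (6.93-fold) and Rhox6 171 and 756 (5.80-fold). Besides Rhox genes, X-linked genes among the 15 largest increases were Ezhip (121 and 517, 6.21-fold), an inhibitor of polycomb complex PRC2 in germ cells, and Fthl17f (6.28-fold), a ferritin-like gene of the testis. Of 321 X-linked genes compared, 27 were higher (8.41%) and 12 lower (3.74%). Probes of Rhox, Fthl17 and Xlr genes may be shared with near-identical copies.

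**Figure D3:**
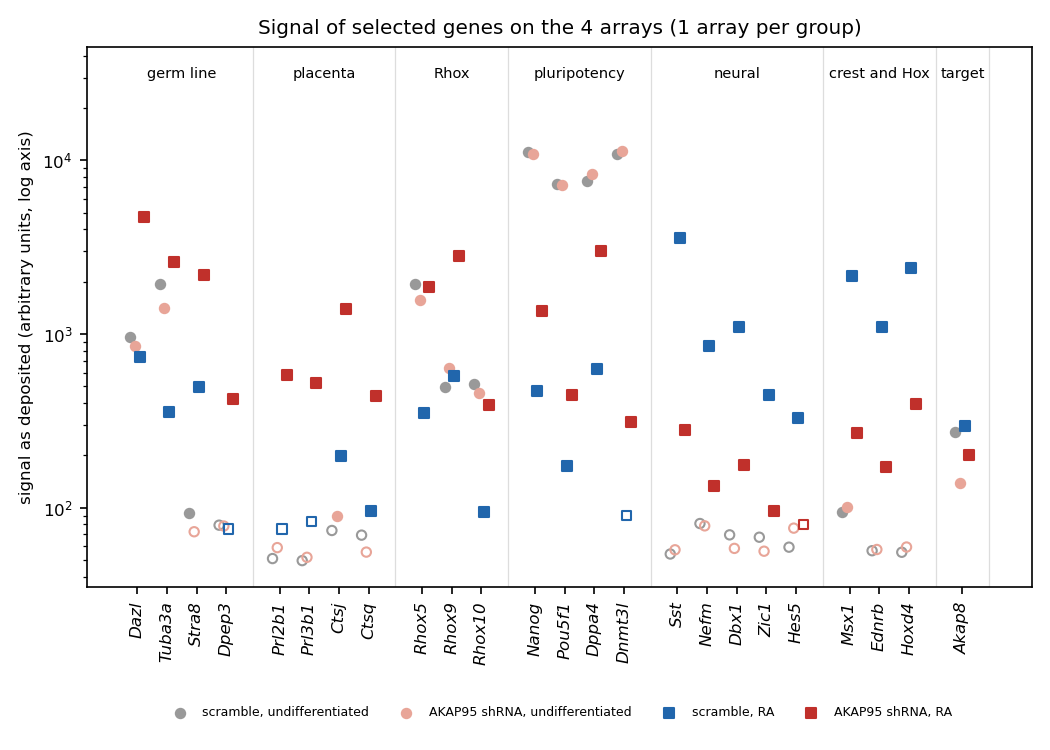
Deposited signal on a log axis for 24 genes on the 4 arrays (x axis, grouped by role), 1 point per gene and array; grey and pink circles are undifferentiated scramble and AKAP95 shRNA cells, blue and red squares the same after RA, and open symbols were not detected. The red squares of the germ line, placenta, Rhox and pluripotency genes lie above the blue ones, and those of neural, crest and Hox genes below.

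Placental genes were higher too. Of 19 trophoblast and placenta genes compared, 11 were higher and 0 lower (median 1.36), and before RA 0 of 16 passed 2-fold. Of these 11, 2 (Prl2b1 and Prl3b1) were detected on the knockdown RA array alone. With detection required on both RA-treated arrays, 9 were higher. The 4 largest lie on chromosome 13, in the prolactin family of placental hormones (Prl2b1, Prl3b1) and the placental cathepsins (Ctsj, Ctsq). Prl2b1 was undetected on 3 arrays and gave 578 with knockdown after RA, against 75.2 with scramble (at least 11.4-fold). Prl3b1 gave 522 against 83.5 (at least 10.2-fold), Ctsj 1396 against 198 (9.40-fold) and Ctsq 438 against 95.9 (7.69-fold). These genes sit in clusters of close copies, whose probes may cross-react. The defining trophoblast markers Eomes, Tpbpa and Prl3d1 were detected on neither RA-treated array. The 9 markers summed to 805 with scramble and 3294 with knockdown, against 592.2 and 600.5 before RA. They include Prl2b1, Prl3b1, Ctsj and Ctsq, so the sum repeats these genes and is not separate evidence of trophoblast cells. The part of these cells in the list's difference was not tested. Tfap2c, a transcription factor of trophoblast and of primordial germ cells, was at 536 and 1291 (2.57-fold), below its undifferentiated signals of 1724 and 1666.

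Pluripotency genes were higher in the knockdown cells after RA and far below their undifferentiated levels. Of 24 compared, 13 were higher and 0 lower (median 1.20, or 0.79 without background correction). With detection required on both RA-treated arrays, 11 were higher. The normalized level of all 13 was below both undifferentiated arrays on both RA-treated arrays. Pou5f1, which encodes Oct4, gave 173 with scramble and 443 with knockdown after RA (3.13-fold), and 7323 and 7263 before it. Nanog gave 473 and 1348 (3.13-fold), against 11239 and 10841 before RA. Klf2, a factor of naive pluripotency, had 218 and 917 (5.17-fold), against 3109 and 3386. Sox2, shared with neural progenitors, did not follow (179 and 174, log2 -0.11, and -0.65 on a second probe). Dnmt3l, the cofactor of de novo DNA methylation in germ cells and ES cells, was undetected with scramble (90.3) and at 311 with knockdown (at least 5.61-fold), after signals of 10926 and 11264 before RA. Of 19 genes of DNA methylation and heterochromatin it was the only one past 2-fold. Among genes that mark the rare 2-cell-like state of ES cell cultures, 6 of 7 were higher and 0 lower (median 1.47), including Zscan4c (192 and 484, 3.02-fold, against 4813 and 4666 before RA) and Tcstv1 (2.87-fold). Without background correction 4 genes of this 2-cell list were higher (median 1.0). Zscan4 and Tcstv genes have near-identical copies.

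Genes of signalling pathways active in ES cells also differed. Of 7 Nodal pathway genes 3 were higher, the inhibitors Lefty1 (140.4 and 480.4, 4.62-fold) and Lefty2 (78.2 and 287, at least 5.02-fold) and the ligand Gdf3 (109 and 340.5, 4.57-fold), all below their undifferentiated signals. With detection required on both RA-treated arrays 2 were higher, and the list median fell from 0.97 to 0.17. Gdf3 is also counted in the pluripotency list above. In the FGF list, 2 of 12 were lower: Fgfbp3, a carrier of FGFs (1141 and 161, 10.4-fold), and Fgf15 (210.2 and 74.3, at least 3.79-fold), a ligand of the neural tube. With detection required on both RA-treated arrays, 1 was lower. 

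Genes of neurons were the largest group among those that were lower. Of 31 neurogenic factors and neuronal genes compared, 17 were lower and 0 higher (3.25% of all genes were lower), with a median of -1.03 and a range from -4.11 to 0.98. Without background correction 11 were lower, and with detection required on both RA-treated arrays 15 were. In undifferentiated cells 0 of 24 passed 2-fold (median -0.01). Sst, the hormone somatostatin, gave 3583 with scramble and 281 with knockdown after RA (17.3-fold lower), with no detection before RA. The neurofilament gene Nefm gave 857 and 133 (9.92-fold lower). Stmn2, a regulator of neuronal microtubules, was at 1917 and 2290.5 before RA, at 464 with scramble and at 115 with knockdown after it (6.40-fold lower), so that both RA-treated arrays were below the undifferentiated ones. Crmp1, of growth cones, had 299 and 89.3 (5.71-fold). Chosen after their values were seen, the migrating-neuron gene Dcx gave 394 and 112 (5.40-fold), the neuronal RNA-binding gene Elavl4 251 and 104 (3.57-fold) and the proneural factor gene Neurod4 231 and 89.8 (4.16-fold). Tubb3 was detected on neither RA-treated array. Neuronal markers, which include Nefm, Stmn2 and Dcx, summed to 2589 with scramble and 867 with knockdown after RA. Before RA the sums were 2290.9 and 2682.7, mostly from Stmn2. The scramble sum after RA is thus little above that before it, and is no measure of neurons formed. The part of neurons in the list's difference was not tested.

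Progenitors of the neural tube showed the same direction. Of 18 patterning and progenitor genes compared, 8 were lower and 0 higher (median -0.90). With detection required on both RA-treated arrays, 6 were lower. Dbx1, of interneuron progenitors, had 1091 and 176 (8.66-fold lower), Zic1, of the dorsal tube, 447 and 95.1 (8.30-fold), and the LIM factor gene Lhx1 458 and 133 (5.02-fold). Nes, the progenitor filament, was at 711 and 432 (log2 -0.83) and under 2-fold. Notch signalling, which keeps progenitors from becoming neurons, had 6 of 10 genes lower and 0 higher (median -1.22). Without background correction 3 were lower (median -0.80), and with an offset of 50 or the deposited ratio also 3. The target genes Hes5 (329 and 80.2, at least 6.49-fold) and Hey1 (1583 and 533, 3.39-fold) were lower, as were the ligand gene Dll1 (178 and 92.5, 2.79-fold) and the modifier Mfng (185 and 97.9, 2.68-fold). In the neural crest list 3 of 12 were lower and 1 higher (median -0.60, or -0.37 with the deposited ratio). Msx1, a BMP target, gave 2164 and 271 (10.8-fold lower), Ednrb, the endothelin receptor of crest cells, 1093 and 172 (8.94-fold) and Tfap2b 1052 and 462 (2.50-fold).

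Genes of the RA response itself differed unevenly. Of 21 RA response genes 5 were lower and 1, Stra8, was higher (median -0.54). Only 2 were lower without background correction, with an offset of 50 or with the deposited ratio. The RA-binding protein genes Crabp1 (1008 and 232, 5.60-fold) and Crabp2 (1127 and 383, 3.34-fold) were lower, and the receptor gene Rarb was at 2232 and 1480.4 (log2 -0.66). The RA-degrading enzyme gene Cyp26a1 was at 212 and 272 (log2 0.40), and Rarg at 142 and 140.3 (log2 -0.08). Of 23 Hox genes 4 were lower and 0 higher (median -0.22). Hoxd3 had 743 and 129 (8.94-fold lower) and Hoxd4 2409 and 395 (7.51-fold), while Hoxc6 had 2084 and 794 (2.96-fold) and Hoxb6 982 and 387 (2.85-fold). Hoxa5 (4834 and 4419, log2 -0.05) and Hoxb2 (1734 and 1703, log2 -0.00) hardly differed, and Hoxb1, the most anterior of its cluster, was at 587 and 1045 (log2 0.89).

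Wnt pathway genes had 7 of 24 members lower and 1 higher (median -0.40). The lower count was 4 without background correction, with an offset of 50 or with the mean of all probes, and 3 with the deposited ratio, and the higher count was 0 without background correction. The secreted inhibitor gene Sfrp1 was at 3048 and 1034 (3.32-fold lower), the target gene Sp5 at 375 and 147 (3.38-fold), the receptor gene Fzd10 at 387 and 171 (2.85-fold) and the ligand gene Wnt3a at 167 and 78.3 (at least 2.77-fold). The receptor gene Fzd5, named through an older symbol, was at 238.5 and 474 (2.24-fold higher). In the BMP list Msx1 alone of 14 was past 2-fold.

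Lists of other lineages held genes past 2-fold in both directions, beside 3.17% higher and 3.25% lower over all genes. Counts of 1 or 2 members in lists of this size are not read as a result about the lineage. Of 24 endoderm genes 2 were lower and 0 higher (median -0.09; 1 lower without background correction), the factors Gata6 (1615 and 712, 2.47-fold) and Sox17 (209 and 126, 2.13-fold), whereas the endoderm markers summed to 2147 and 1173 and Afp was undetected. Of 16 mesoderm, endothelium and muscle genes 3 were higher and 1 lower (median 0.01). The muscle genes Acta1 (180.5 and 458, 3.08-fold) and Myl4 (188 and 360.3, 2.20-fold) were higher. So was the endothelial gene Pecam1 (91.8 and 161, 2.35-fold), although a second Pecam1 probe gave log2 0.20. The cardiac actin gene Actc1 was lower (273 and 147, 2.34-fold). Without background correction 1 gene of this list was higher and 0 lower. Of 23 cadherins, keratins and mesenchymal genes 2 were higher and 3 lower (median 0.32). The transcription factors Zeb1 (1107 and 420.1, 2.95-fold) and Zeb2 (388 and 151.5, 3.37-fold, and log2 -0.85 with the mean of its probes) and the filament gene Vim (2167 and 976, 2.45-fold) were lower. In the same list, the tight junction gene Cldn4 (2529.8 and 4807, 2.04-fold) and S100a6 (2.31-fold) were higher, and Cdh1, which encodes E-cadherin, was at 1114 and 1711 (log2 0.71). Of 31 extracellular matrix genes 5 were lower (2 without background correction) and 1 higher, such as the collagen gene Col1a1 (187 and 89.1, 3.20-fold lower) and the protease gene Mmp2 (3328 and 1518, 2.33-fold lower).

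**Figure D4:**
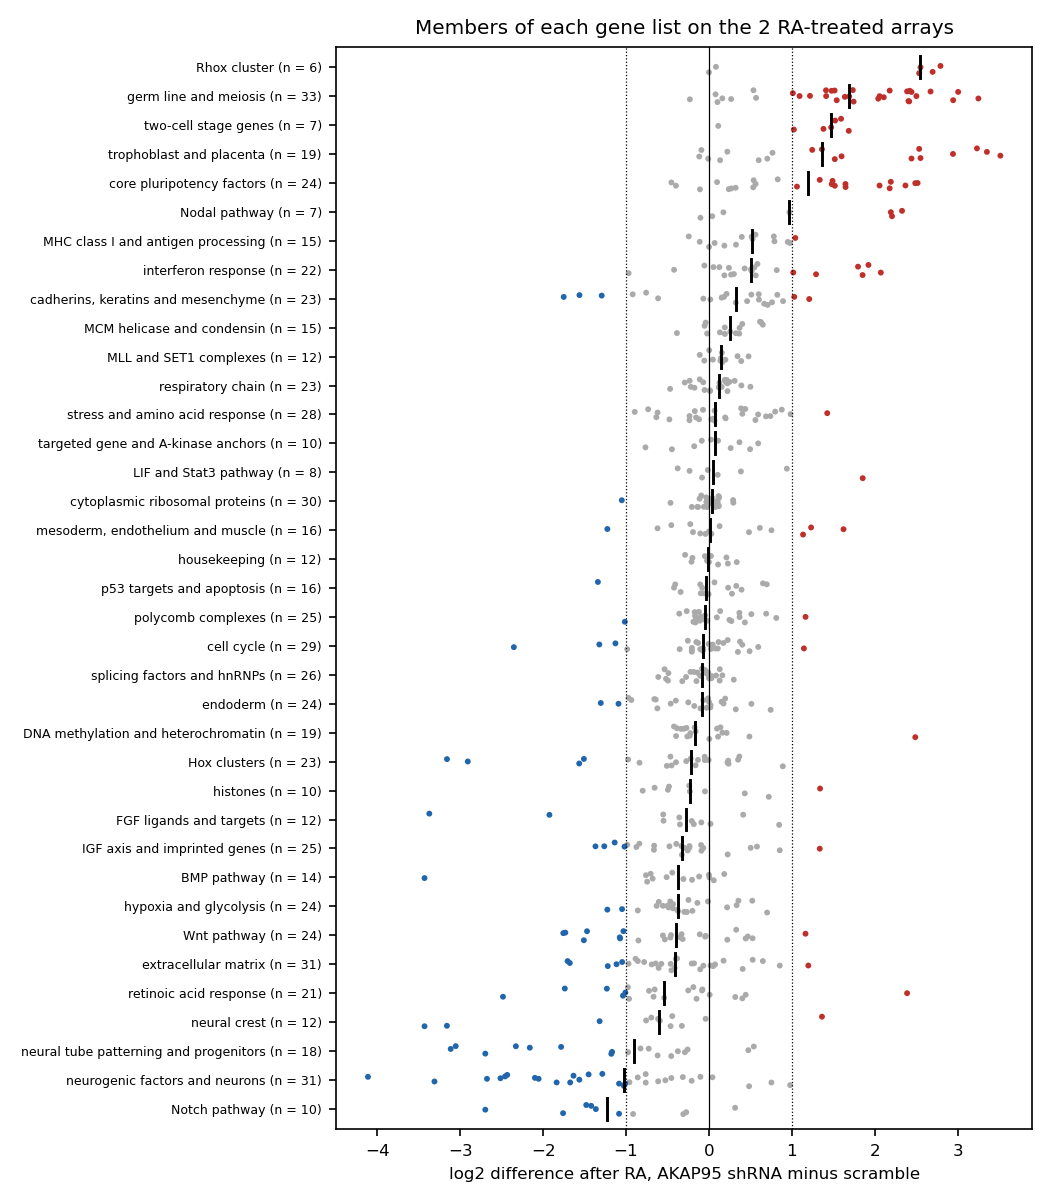
Each point is a gene and each row 1 of 37 gene lists (n is the number compared), with the log2 difference AKAP95 shRNA minus scramble after RA on the x axis; black bars are list medians, red points are at least 2-fold higher and blue points at least 2-fold lower. Rhox, germ line, 2-cell, placental and pluripotency genes stand at the top, and Notch, neuronal and neural tube genes at the bottom.

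The interferon response list had 6 of 22 genes higher and 0 lower (median 0.51). The higher count was 4 without background correction, with an offset of 50 or with the deposited ratio. Irf1, a transcription factor of the pathway, was at 748 and 2468 (3.79-fold), the GTPase genes Gbp2 at 249.6 and 765 (3.61-fold, and log2 0.62 with the mean of its probes) and Gbp3 at 114 and 342 (4.21-fold), and Oasl2 at 219 and 643 (3.48-fold), although a second Oasl2 probe gave 0.04. All 6 were above both undifferentiated arrays in the knockdown. Of 15 MHC class I and antigen processing genes 1 was higher (H2-T23, 2.06-fold), with the same median of 0.51.

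Growth control showed few differences, and cyclin D genes were among them. Ccnd1 had 3406 and 765 (5.11-fold lower), against 1674 and 1701 before RA, so that the knockdown RA array was the lowest of 4. Ccnd2 had 12149.8 and 4616 (2.50-fold lower), against 315 and 307 before RA. Aurka, a mitotic kinase, was at 1903 and 946 (2.19-fold lower), while the cell cycle inhibitor gene Cdkn2a was at 280.1 and 564 (2.21-fold higher), and 1 of 29 cell cycle genes was higher and 3 lower. The imprinted and IGF list had 4 of 25 lower (2 without background correction) and 1 higher (median -0.33), with Igfbp4 at 3687 and 1513 (2.58-fold lower), Mest at 5513 and 2268 (2.40-fold lower) and Phlda2, which restrains placental growth, at 312 and 700.4 (2.52-fold higher). Replication licensing and condensin genes (15), splicing factors (26) and respiratory chain genes (23) had 0 members past 2-fold, with medians of 0.26, -0.08 and 0.12. Of 25 polycomb genes 1 was higher (Cbx7) and 1 lower (Yaf2), a share near that of all genes (3.17% and 3.25%), and Yaf2 was under 2-fold without background correction (-0.83).

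Chromosome 11 stood apart from the others in its median. The 810 genes compared on it had a median log2 difference of 0.149 after RA, and 65.2% lay above 0, while the medians of the other chromosomes ran from -0.073 to 0.036. Before RA its median was -0.006. It held 38 higher genes (4.69%) and 17 lower ones (2.10%). Divided into 8 neighbouring stretches of genes in chromosome order, 7 had a median above 0.1 (from 0.067 to 0.277 over all 8), against 2 of 83 stretches elsewhere (from -0.111 to 0.158). Of the genes named above as past 2-fold, Irf1, Myl4 and Pecam1 (higher) and Hoxb6, Lhx1, Col1a1, Wnt3a and Igfbp4 (lower) lie on chromosome 11. This pattern was looked for after the values were seen. Its cause was not tested, and DNA copy number of the cells was not analysed here. The shift was present with other settings (0.115 to 0.183).

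**Figure D5:**
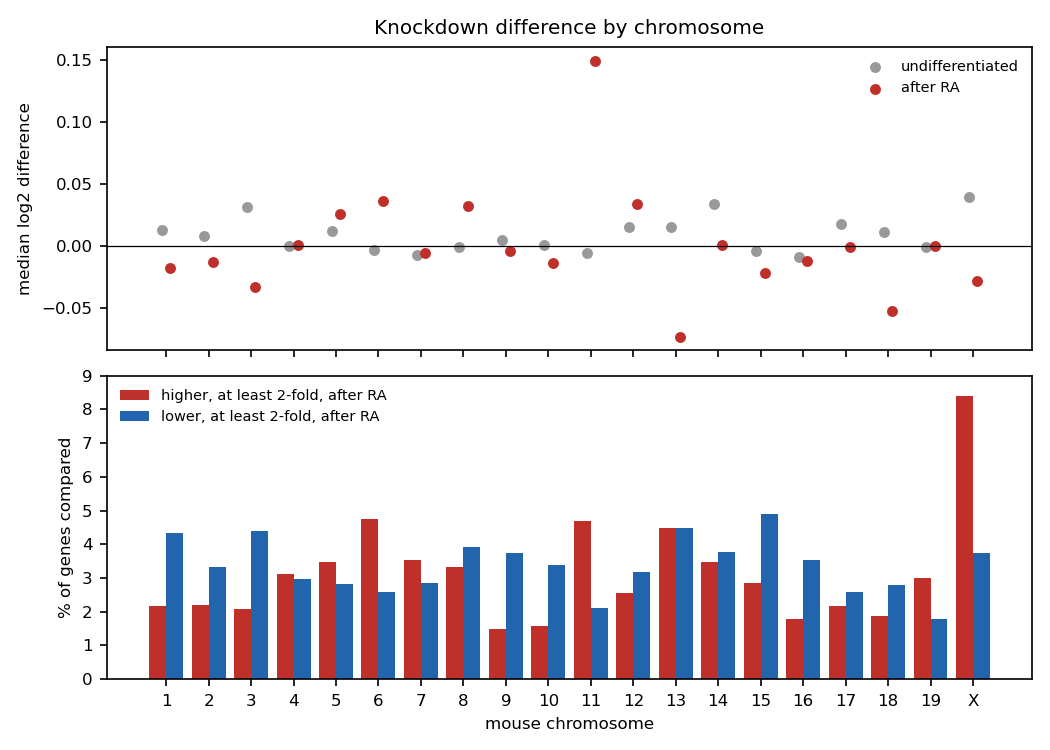
The upper panel gives the median log2 difference AKAP95 shRNA minus scramble of the genes on each chromosome (x axis), in grey for undifferentiated and red for RA-treated cells, and the lower panel the percent of genes compared that were at least 2-fold higher (red) or lower (blue) after RA. Chromosome 11 has the highest median after RA (0.149), and the X chromosome the largest share of higher genes (8.41%).

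How far probes of 1 gene agreed gives a measure of noise within these arrays, not between cultures. For 2107 genes with at least 2 probes detected on both RA-treated arrays, the pooled SD of the difference between probes was 0.187. Of 54 higher genes with at least 2 probes compared, all probes had the same direction in 53 and all passed 2-fold in 22. Among 64 lower genes the numbers were 59 and 29.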

How the data were processed

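RNA of 4 mouse E14 cultures (1 per group) was labelled with biotin and hybridised to Illumina bead arrays, per the labels' protocols. The authors deposited, per the file headers, a non-normalized intensity and a detection p-value for each of 25697 probes and array, and tables with the ratio of the intensity to the array's median. Scanner software, its version and any earlier background subtraction are not given in the sources used here. All 3 tables matched to a relative tolerance of 1e-05 for all 25697 probes. A further deposited ratio is each value over that of the undifferentiated scramble array.

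From the intensities, background was corrected (mean and spread of negative controls inferred from the detection p-values), an offset of 16 was added, and the 4 arrays were quantile-normalized on the log2 scale with limma 3.58.1 in R 4.3.3 (neqc). Later steps used Python 3.11.15, numpy 2.4.6, pandas 2.3.3 and matplotlib 3.10.9. These steps were tested on simulated data with fold changes set only at detected, brighter probes, so folds of dim genes were not checked. Symbols came from the RefSeq annotation of GRCm38.p6 by accession for 23876 probes (92.9%), by old symbol for 728 and by synonym for 709, and 384 probes had no match. A gene was read from its brightest probe. A gene detected on 1 array alone had its dim side raised to that array's detection floor (log2 5.37 for scramble and 5.26 for knockdown after RA), which gives a bound.

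With 1 array a side there is no test and no p-value for any difference. The number of arrays limits the precision of every value. Lists hold 37 groups of genes. They overlap, so that Gdf3, Dnmt3l, Msx1 and Hes5, among others, are counted in more than 1 list. Members, lists and motifs were chosen with earlier results of these data known. The rule for named genes takes the 15 largest increases and 15 largest decreases, the 4 largest members past 2-fold per list and direction, Akap8, Akap8l, Pou5f1, Nanog and Sox2, and the genes next to the threshold, 113 in all; other named genes were chosen after their values were seen. The alternatives tried were no background correction, median scaling, the 2 RA-treated arrays alone, an offset of 50, the deposited ratio, the mean of all probes, no bounds, another detection filter or threshold, and another size rule.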

Additional observations from a re-analysis of the deposited data

Results flagged for a closer look

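Sp5, a target of Wnt signals that encodes a zinc finger factor, was on opposite sides of 2-fold in the 2 states. It was higher in the knockdown before RA (110 with scramble and 192 with knockdown, log2 1.23) and lower after RA (375 and 147, log2 -1.76), so that the knockdown array was the higher one in 1 state and the lower one in the other. The quoted signals before RA, which still hold the background, differ by less than 2-fold, so that call depends on the background step. Each state had 1 array a side, and the difference between the states was not tested.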

How the results depend on the processing

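The main counts after RA were 298 higher and 305 lower genes. They were 135 and 146 without background correction, 188 and 182 with an offset of 50, and 187 and 158 with the deposited ratio, and 856 and 840 at 1.5-fold and 47 and 48 at 4-fold. Median scaling (311 and 300), the RA pair alone (298 and 295), the mean of all probes (300 and 264), no bounds (359 and 352), a detection threshold of 0.05 (332 and 326) and detection on both arrays (253 and 256) kept the counts within 1.5 times. No gene called here was called in the opposite direction under these settings, and 48.0% to 54.2% of calls were higher. Of the genes called, 120 higher and 115 lower ones were called under every setting of values, probes, bounds and detection threshold. Of 106 named genes past 2-fold, 76 stayed past it under every alternative that gave a value and 30 were below it under at least 1, among them Dll1, Mfng, Wnt3a, Sox17, Col1a1, H2-T23, Cldn4, Cdkn2a, Stra6, Yaf2, Aurka and Fzd5, and with the mean of all probes Gbp2 (0.62), Zeb2 (-0.85) and Fzd10 (-0.99). The 17 genes past 2-fold before RA, recounted after seeing the data, were 4 without background correction, 6 with an offset of 50, 7 with the deposited ratio and 46 without bounds. No paired analysis was possible because each group has 1 array. For dim genes the fold depends on the background step, and the cause of the other shifts was not tested.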
